A study of Mus musculus with 25 samples.

Results

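Thymocytes of *Rag1*-deficient mice that kept or lost the kinase WNK1 were compared before any stimulus, at 0 hr, in 7 RNA-seq libraries of the 25 in the series, each from 1 mouse. The control group held 3 Wnk1fl/+CD2CreRag1KO mice and the WNK1-deficient group 4 Wnk1fl/flCD2CreRag1KO mice. CD2Cre is a Cre recombinase driven by the human CD2 promoter, which is active in lymphocytes from early progenitors on, and the floxed part of the gene is exon 2. Both groups therefore carried Cre, the *Rag1* deletion and at least 1 floxed *Wnk1* allele, so the control thymocytes had 1 intact allele and are not wild type. The mice were 7 to 8 weeks old and had received no antibody against CD3, whereas the other 18 libraries came from mice taken 3, 24 or 48 hr after its injection. Thymocytes that were Thy1.2+ and CD44-, the CD4-CD8- double negative stages DN3 and DN4 together, had been sorted before RNA was made, and all libraries came from 1 experiment. The values are normalised read counts: estimated reads per gene divided by a size factor for the library. Of 48795 genes in the table, 13865 had a mean normalised read count of at least 10 over the 7 libraries and were tested.

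WNK1 is a kinase that phosphorylates STK39 and OXSR1 (also called SPAK and OSR1), which in turn switch on the sodium-coupled chloride importers of the SLC12A family and restrain the potassium-coupled exporters. In mature T cells it is known as a regulator of migration and of integrin-mediated adhesion. Thymocytes at the DN3 stage rearrange the T cell receptor (TCR) beta gene, and only those that assemble a pre-TCR from TCRbeta, pre-TCRalpha and the CD3 chains pass beta-selection, divide and go on to express CD4 and CD8. Without RAG1 no TCR gene can be rearranged, so the thymocytes are held at DN3, and an antibody against CD3 stands in for the pre-TCR signal.

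The sorted cells carried the transcripts of DN3 thymocytes. *Il2ra* (CD25) lay between 67361 and 103572 normalised read counts over the 7 libraries, *Dntt* (terminal transferase) between 75485 and 122454, and *Cd3e* between 16932 and 35540.1. *Cd4* reached no more than 144, *Cd8a* 52.6 and *Cd8b1* 48.4. *Kit*, which marks earlier progenitors, was not absent. It was at 1443.6, 1503.5 and 1320.0 in control and 3425, 2428, 2388 and 2344 in WNK1-deficient libraries, and was not called (log2 fold change 0.88, limma adjusted p = 0.152). Reads were still counted at the disrupted *Rag1* gene, 13541, 16416 and 27459 in the control libraries and 4504, 4264, 3234 and 3803 in the WNK1-deficient libraries. The 7 libraries held 24.7 to 56.6 M (megareads) of estimated reads. On the first principal component, with 53.2% of the variance, the genotypes separated, and on the second, with 13.9%, WNK1-deficient library 1 stood apart from the other libraries. All control libraries at 0 hr were sequenced in lane 1 and all WNK1-deficient libraries in lane 2, so at 0 hr the lane cannot be told apart from the genotype. The later libraries, in which lane and genotype are partly crossed, allow a fit with lane as a covariate (called the lane fit here). For 0 hr its step from lane 1 to lane 2 rests only on control mice of 48 hr. Of these, libraries 1 and 2 were in lane 2 and library 3 in lane 1. That step therefore cannot be told apart from a difference between these mice. The counts of the lane fit are given beside those of most gene lists.

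Of the 13865 genes, 3123 (22.5%) differed between the genotypes at an adjusted p under 0.05 by limma: 1518 (10.9%) rose and 1605 (11.6%) fell where WNK1 was lost, and the median log2 fold change over all genes was -0.01. The counts called higher and lower in each gene list below are to be read beside these shares, 10.9% and 11.6%. At least a 2-fold difference was seen for 672 of the higher and 598 of the lower genes. In 5688 genes (41%) every WNK1-deficient library lay on 1 side of every control library, 2687 of them (19.4%) higher and 3001 (21.6%) lower. The spread behind each test was shared with the libraries of the later times. Fitted to the 7 libraries alone, 4867 genes were called, 3069 of them among the 3123. The count fell to 1712 without control library 1 and to 1980 without control library 2, and 1470 genes were called whichever library was left out. In the plot of fold change against level, the called genes spread over the whole range of expression.

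**Figure D1:**
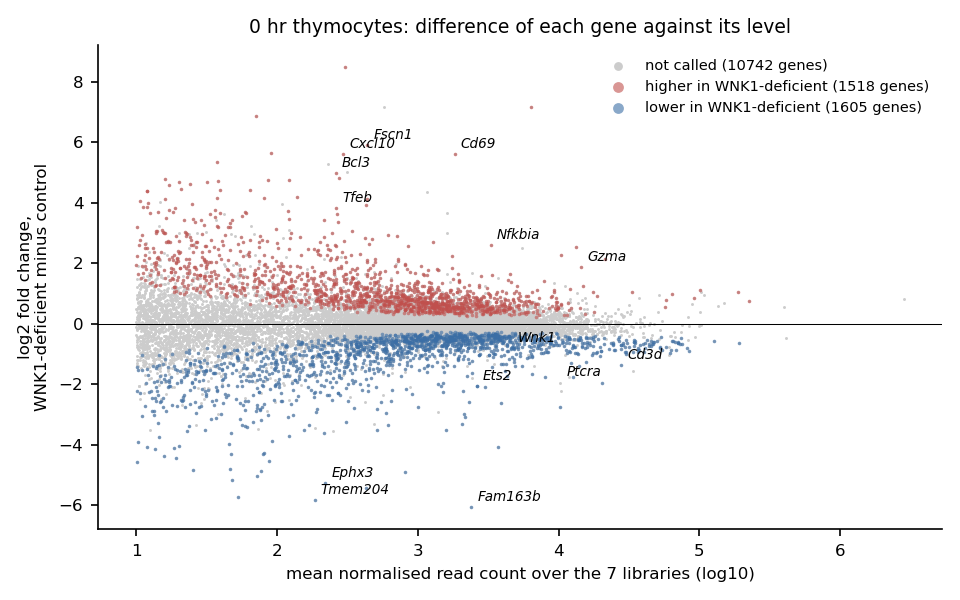
Log2 fold change of each tested gene at 0 hr (WNK1-deficient minus control, fitted on log2 of the normalised read count plus 1) against the log10 of its mean over the 7 libraries, with red points called higher and blue points called lower. *Cd69* and *Nfkbia* stand out among abundant genes that were higher, *Fam163b* among those that were lower, and *Wnk1* lies at -0.83.

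*Wnk1* (chromosome 6, 119923969 to 120038695 in GRCm38) was counted at 5643, 5407 and 7356 in the control libraries and 3967, 3162, 3037 and 3614 in the WNK1-deficient libraries. The groups did not overlap, and the mean fell to 3445 ± 428 (SD, n = 4) from 6135 ± 1064 (n = 3), a log2 fold change of -0.83 ± 0.22 (SE, adjusted p = 0.00988), which without control library 3 was -0.69 (adjusted p = 0.0544). Reads over the whole gene were counted, so transcripts that lack only exon 2 still add to the value, and 1 allele was also deleted in the control mice. Of the 13 tested genes of the WNK pathway, 5 rose and 2 fell, with a median log2 fold change of 0.51, and in the lane fit 3 were called higher and none lower. *Wnk3*, a second WNK kinase, was almost absent from control thymocytes at 7.03, 2.11 and 10.6 and rose to 47.03, 36.1, 33.8 and 41.05 (log2 fold change 2.60, adjusted p = 2.42e-04). *Wnk2* was low in both groups, at means of 14.9 and 8.38, and was not called. *Stk39*, the substrate kinase SPAK, counted 90.2, 100.3 and 92.02 in the control libraries and 295, 293, 301 and 351 in the WNK1-deficient libraries. All WNK1-deficient values of *Stk39* were above the control values, the rise was 1.71 ± 0.33 (SE, adjusted p = 0.00102), and the related *Oxsr1* was not called at 0.26 (adjusted p = 0.0705) except without control library 3. *Cab39* (MO25), the scaffold that activates both substrate kinases, rose by 0.74 on the log2 scale. The ubiquitin ligase that degrades WNK kinases is built from CUL3 and the adaptors KLHL2 and KLHL3: *Klhl2* rose by 0.77 and *Cul3* by 0.60, while *Klhl3* fell (-0.72). The last of these turned to 0.08 with lane as a covariate, and the calls of *Klhl3* and *Cul3* were each lost without any 1 of 5 libraries.

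Among the cotransporters that this pathway acts on, *Slc12a2* (NKCC1), the sodium-potassium-chloride importer, was at 154, 99.2 and 107 in control and 652, 691, 434 and 573 in WNK1-deficient thymocytes. The groups were well apart, and the log2 fold change was 2.29 ± 0.29 (SE, adjusted p = 1.50e-05). The potassium-chloride exporter *Slc12a7* (KCC4) fell from 5518 to 3347 (-0.73, adjusted p = 0.00529), but with lane as a covariate its value was -0.02 (adjusted p = 0.98), beside 2.58 for *Slc12a2*. *Slc12a4* (KCC1) and *Slc12a9* were not called, at 0.09 and -0.11. In a list of 38 channels, pumps and volume regulators, 9 rose and 1 fell, but only 3 were left without control library 1, 4 without control library 2 or WNK1-deficient library 1, and 5 without WNK1-deficient library 4, and in the lane fit 1 was called higher and none lower. The calcium pump *Atp2b1* rose by 1.27, the taurine transporter *Slc6a6* by 0.47 and the calcium channel subunit *Orai1* by 0.85, while its relative *Orai2* fell (-0.81). Without control library 2 the calls of *Slc6a6* and *Orai2* were lost, the latter also without control library 1 or WNK1-deficient library 1, and with lane as a covariate *Orai2* was at -0.07 (adjusted p = 0.914).

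Among called genes whose mean was 100 or more, with groups that did not overlap and a symbol that is no predicted gene, clone name or pseudogene, the largest rise was of *Dscam*, an adhesion molecule of the immunoglobulin superfamily known from neurons, with 2 reads over the 3 control libraries and 2230 over the 4 WNK1-deficient libraries. Scaled for depth, that is a ratio of 701, with an exact 95% interval of 194 to 5792 that covers counting error only. The next was *Fscn1*, the actin-bundling protein fascin, at 21.1, 9.50 and 7.40 against 811, 831, 834 and 550.2. *Wnt10b* rose from 17.6 to 469 on average (4.81 on the log2 scale), and the heparan sulphate proteoglycan *Sdc4* from 11.9 to 235 (4.20). *Inf2*, a formin, rose by 4.14, *Syt11* by 3.93, *Lad1* by 3.73, *Tspan32* by 3.45, *Rgs1*, which damps signals from chemokine receptors, by 3.37, and the peptide transporter *Slc15a1* by 3.00. The adjusted p of these genes was at most 0.00667. In the lane fit *Lad1* (2.54, adjusted p = 0.239), *Tspan32* (3.97, adjusted p = 0.117) and *Slc15a1* (2.03, adjusted p = 0.125) were not called. The other 5 of the 15 largest rises, *Cxcl10*, *Cd69*, *Bcl3*, *Tfeb* and *H2-Q2*, are described with their groups.

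By the same rule, the largest fall was of *Fam163b*, from 5264, 5678 and 5432 to 84.4, 104, 53.5 and 88.2, a log2 fold change of -6.07 ± 0.72 (SE). It was followed by *Tmem204*, a membrane protein known from endothelium, at 565, 437 and 264 against 4.15, 13.1, 2.82 and 7.96, and by the epoxide hydrolase *Ephx3*, at 521, 404 and 556 against 15.2, 11.5, 5.63 and 17.8. In all 3 the WNK1-deficient values lay far below the lowest control value. Some of the 15 largest falls were in metabolic enzymes: the oxoglutarate dehydrogenase relative *Ogdhl* (-4.92) and the folate enzyme *Aldh1l1* (-3.72). Others were the guanine nucleotide exchange factor *Arhgef10l* (-4.08), the growth factor *Pdgfa* (-3.52), the deacetylase *Hdac11* (-3.24), the sodium channel subunit *Scn4b* (-3.08), the piRNA pathway gene *Tdrkh* (-3.08), *Fam131a* (-3.63), *Rps6kl1* (-3.53), *Ccdc153* (-3.36) and *Vwce* (-3.35). The adjusted p of the genes named was at most 0.00283, and none lost its call when a library was left out. In the lane fit *Ephx3* (-3.12, adjusted p = 0.158) and *Ccdc153* (-3.82, adjusted p = 0.0949) were not called, while the others named were called lower.

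Among abundant genes, with a mean of at least 1000, those of smallest p that rose were *Cd69*, *Nfkbia*, *Hexim1*, *Sox4*, *Slc2a3*, *Clic4*, *Tshz1*, *Dennd6a*, *Sypl* and *Hsd17b12*. *Hexim1*, the inhibitor of the elongation kinase P-TEFb, was at 1472, 1502 and 1533 in control and 3818, 3672, 3414 and 3796 in WNK1-deficient libraries, a log2 fold change of 1.29 ± 0.11 (SE, adjusted p = 1.63e-07). The glucose transporter GLUT3, *Slc2a3*, rose from 684, 783 and 627 to 1851, 2490.2, 3039.6 and 2816. Neither gene's groups overlapped. The chloride channel family member *Clic4* rose by 1.00, the transcription factor *Tshz1* by 1.05, *Dennd6a* by 1.60, *Sypl* by 1.48 and *Hsd17b12* by 0.86 on the log2 scale. Beside *Fam163b* and *Ets2*, the abundant genes of smallest p that fell were *Pld4* (-2.76), *Borcs8* (-1.35), a subunit of the complex that moves lysosomes, the actin regulator *Gmfg* (-0.98), *Hsdl1* (-1.66), the G protein gamma subunit *Gngt2* (-1.17), *Tcf25* (-0.92), *Syngr2* (-1.42) and *Tm6sf1* (-1.74). Each of these 8 was called whichever library was left out. In the lane fit *Hsdl1* (-1.14, adjusted p = 0.0553), *Sypl* (1.22, adjusted p = 0.0613) and *Hsd17b12* (0.54, adjusted p = 0.118) were not called.

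Several genes that respond to NF-kB rose before any stimulus. NF-kB is a family of dimers of REL, RELA, RELB, NFKB1 and NFKB2, held in the cytoplasm by the inhibitor IkBalpha (*Nfkbia*), whose own gene is a target of the freed dimers. *Nfkbia* was at 899, 979 and 675 in control and at 5191, 4869.7, 5398 and 5013 in WNK1-deficient thymocytes, a log2 fold change of 2.60 ± 0.20 (SE, adjusted p = 5.46e-08). *Relb* stood at 177, 160.5 and 116 against 1037, 1148, 1250.2 and 1057 (2.90, adjusted p = 6.41e-08). *Bcl3*, an IkB relative that works in the nucleus, was at 9.37, 19 and 12.7 against 423, 495, 494 and 375 (4.97, adjusted p = 1.68e-07). The groups of all 3 genes were far apart, with the 4 WNK1-deficient libraries close to each other. *Rel* rose from 232, 291 and 424 to 1068, 998, 876 and 1106 (1.72), also without overlap. The other subunits were not called higher: *Nfkb1* was not called at 0.15 (adjusted p = 0.403), *Rela* was not called at -0.16 (adjusted p = 0.506), and *Nfkb2* fell, from 4832, 4403 and 5645 to 2415, 2903, 3035 and 2516 (-0.87, adjusted p = 9.33e-04). Over the 22 tested NF-kB subunits and targets, 8 rose and 3 fell, with a median of 0.31. In the lane fit 7 of the 22 were called higher and none lower.

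The promoters of 4 NF-kB genes, which moved in both directions, and of *Cxcl10* and *Nr4a1* are shown because they carry the NF-kB decamer. Capitals mark matches to the NF-kB decamer on either strand, overlapping matches included. The windows run from 250 bases before to 50 after the first start that RefSeq lists in GRCm38.p6, which need not be the most upstream. They lie at chr12:55492598-55492897 (minus strand, *Nfkbia*), chr7:19822706-19823005 (minus, *Bcl3*), chr11:23770920-23771219 (minus, *Rel*), chr19:46304487-46304786 (plus, *Nfkb2*), chr5:92348840-92349139 (minus, *Cxcl10*) and chr15:101266596-101266895 (plus, *Nr4a1*).
Nfkbia: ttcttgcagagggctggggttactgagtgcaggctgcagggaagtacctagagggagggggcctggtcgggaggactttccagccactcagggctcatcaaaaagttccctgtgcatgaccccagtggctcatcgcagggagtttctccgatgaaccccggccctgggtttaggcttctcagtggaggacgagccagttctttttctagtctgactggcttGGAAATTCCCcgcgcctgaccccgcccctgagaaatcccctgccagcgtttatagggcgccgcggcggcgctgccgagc
Bcl3: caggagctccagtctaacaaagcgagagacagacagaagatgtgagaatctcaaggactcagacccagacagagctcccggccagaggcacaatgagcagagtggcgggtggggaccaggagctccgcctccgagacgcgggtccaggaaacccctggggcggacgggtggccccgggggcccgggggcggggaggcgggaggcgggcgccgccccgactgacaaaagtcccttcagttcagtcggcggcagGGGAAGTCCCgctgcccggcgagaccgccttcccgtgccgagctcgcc
Rel: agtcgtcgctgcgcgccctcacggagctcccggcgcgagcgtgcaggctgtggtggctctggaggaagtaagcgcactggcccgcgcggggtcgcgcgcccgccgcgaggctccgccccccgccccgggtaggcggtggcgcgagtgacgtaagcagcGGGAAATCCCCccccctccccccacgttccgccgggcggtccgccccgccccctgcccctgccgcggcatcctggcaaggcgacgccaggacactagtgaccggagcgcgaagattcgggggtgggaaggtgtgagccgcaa
Nfkb2: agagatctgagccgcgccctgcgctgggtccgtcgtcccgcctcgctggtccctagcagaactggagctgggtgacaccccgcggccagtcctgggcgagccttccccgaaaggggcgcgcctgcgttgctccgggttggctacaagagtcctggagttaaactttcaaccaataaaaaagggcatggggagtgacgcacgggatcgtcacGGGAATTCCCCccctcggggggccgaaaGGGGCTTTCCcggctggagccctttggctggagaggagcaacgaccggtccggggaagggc
Cxcl10: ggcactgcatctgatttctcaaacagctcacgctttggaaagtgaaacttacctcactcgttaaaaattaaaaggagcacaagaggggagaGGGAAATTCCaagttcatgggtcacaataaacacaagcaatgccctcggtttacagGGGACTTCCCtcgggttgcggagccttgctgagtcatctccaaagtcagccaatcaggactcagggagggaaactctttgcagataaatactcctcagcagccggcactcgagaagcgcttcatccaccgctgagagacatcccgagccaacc
Nr4a1: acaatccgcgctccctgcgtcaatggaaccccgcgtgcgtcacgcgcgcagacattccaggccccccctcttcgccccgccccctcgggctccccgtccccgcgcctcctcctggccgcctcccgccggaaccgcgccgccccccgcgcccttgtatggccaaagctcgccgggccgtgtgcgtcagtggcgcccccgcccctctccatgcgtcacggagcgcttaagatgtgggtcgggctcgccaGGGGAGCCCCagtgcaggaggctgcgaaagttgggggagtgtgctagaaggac

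The decamer was found in 1175 of 27025 promoters in the table (4.35%) and in 4.87% of the promoters of 9576 tested genes. It was in 72 of 1115 promoters of genes called higher (6.46%), in 58 of 1150 of those called lower (5.04%) and in 4.6% of the rest. Of the 22 NF-kB genes, 17 had a promoter in the table and 8 of these a match, 3 of them in genes that rose (*Nfkbia*, *Bcl3* and *Rel*), 1 in *Nfkb2*, which fell, and 4 in genes that were not called. In the gene list of *Nr4a1*, 1 of 4 promoters of genes that rose had a match and 2 of 3 of those not called. In that of *Cxcl10*, 2 of 5 promoters of genes that rose had a match and 0 of 4 of those not called. These are matches of letters, given as a description, and binding was not measured.

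Immediate-early genes are switched on by signals within minutes. Of 9 tested NR4A, EGR, NAB and IER genes, 6 rose and none fell, with a median of 1.93, and these 6 were called whichever library was left out, while in the lane fit 5 were called higher and none lower. *Nr4a1*, the orphan nuclear receptor NUR77 that reports TCR signalling, was at 5.86, 7.39 and 7.40 in control and at 76.1, 92.9, 129.5 and 101 in WNK1-deficient thymocytes, a log2 fold change of 3.66 ± 0.33 (SE, adjusted p = 1.68e-07). *Egr1*, a target of ERK signalling, was at 22.3, 12.7 and 16.9 against 81.6, 149, 113 and 149.5 (2.76, adjusted p = 8.68e-06). In neither gene did the groups overlap. *Nr4a3* rose by 2.39, the EGR corepressor *Nab2* by 2.27, *Ier5* by 1.93 and *Ier2* by 1.15, while *Nr4a2* (0.93), *Nab1* (0.38) and *Ier3* (0.70) were not called. *Egr2*, *Egr3* and *Egr4* were below the minimum of 10. With the exception of *Ier5* and *Ier2*, the genes that rose were low in absolute terms, at no more than 149.5 normalised read counts in any library.

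Of 8 tested AP-1 factors, 5 rose and none fell, with a median of 1.10, and the 5 were called whichever library was left out, but in the lane fit only 2 were called higher and none lower. *Junb* was at 740.5, 649 and 581 in control and 1255, 1789.7, 1857 and 1815 in WNK1-deficient libraries, without overlap (1.34, adjusted p = 1.32e-04). *Maff* (1.66), *Batf* (1.34), *Fosb* (1.45) and *Jund* (0.79) rose as well. *Jun* (0.47, adjusted p = 0.494), *Fosl2* (0.87) and *Mafk* (-0.37) were not called. Of 11 DUSP phosphatases and Sprouty family genes, feedback inhibitors of MAP kinase signalling, 7 rose and none fell, with a median of 0.67, and in the lane fit 2 were called higher and none lower. *Dusp6*, the phosphatase of ERK, was at 90.2, 78.1 and 81.4 against 331, 451, 441 and 540.4 (2.37, adjusted p = 8.77e-06), with each WNK1-deficient library above every control library. *Dusp4* rose by 1.54 (0.21 with lane as a covariate, adjusted p = 0.82), *Dusp10* by 1.20 and *Dusp7* by 0.88.

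**Figure D2:**
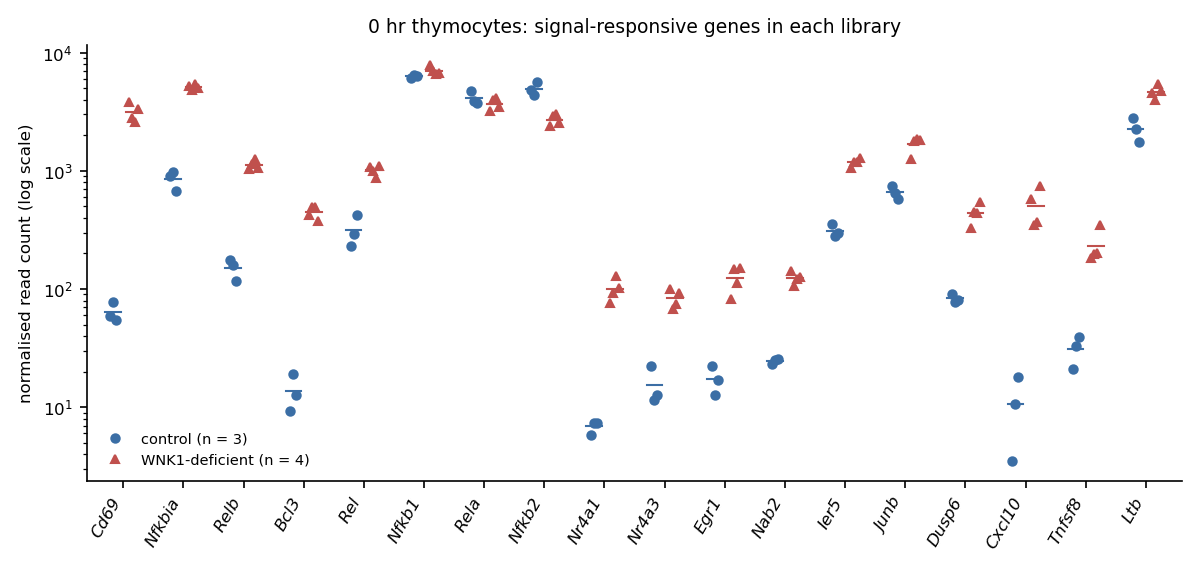
Normalised read count (log scale) of 18 signal-responsive genes in each 0 hr library, with blue circles for the 3 control and red triangles for the 4 WNK1-deficient libraries and bars at the group means. The groups overlap in *Rela*, all WNK1-deficient libraries are below the controls in *Nfkb2*, and in the other genes they are above, by little in *Nfkb1*.

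*Cd69*, a receptor that is induced within hours of antigen receptor signalling and holds cells in tissues, rose from a low level. It was at 58.6, 78.1 and 55 in the control libraries and at 3844, 2815, 2569 and 3360.5 in the WNK1-deficient libraries, a log2 fold change of 5.60 ± 0.30 (SE, adjusted p = 2.57e-10). Of 21 tested activation and costimulatory receptors, *Cd69* and *Cd160* (1.84) rose and *Cd200* fell (-2.53), while the fit to the 7 libraries alone called 4 higher and 6 lower and in the lane fit 1 was called higher and none lower. Among 14 tested chemokines and ligands of the TNF family, 7 rose and none fell, with a median of 1.08, and in the lane fit 5 were called higher and none lower. The chemokine *Cxcl10* was at 3.52, 10.6 and 17.98 against 578, 347, 369 and 739, and *Tnfsf8* (CD30 ligand) at 21.1, 32.7 and 39.1 against 183, 197, 203 and 348, both without overlap. *Tnfsf4* (OX40 ligand) rose by 3.52, *Ccl5* by 5.64, *Cxcl9* by 2.20, *Tnfsf11* (RANKL) by 1.18 and *Ltb* (lymphotoxin beta) by 1.06 on the log2 scale, the last losing its call without control library 2 or 3 or WNK1-deficient library 3. *Ccl5*, *Cxcl9* and *Tnfsf4* had control means of no more than 8.37.

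Of the CD3 chains 3 fell. *Cd3d* was at 45321, 45254 and 38093 in control and 15689.7, 15734, 18394 and 15846 in WNK1-deficient thymocytes, a log2 fold change of -1.38 ± 0.19 (SE, adjusted p = 2.67e-05). *Cd3g* fell by 0.98 and *Cd3e* by 0.88 on the log2 scale (adjusted p = 0.00179 and 0.00403), and the groups overlapped in none of the 3 genes. *Cd247* (CD3zeta) was not called at -0.42. Of the constant regions, *Trgc2* fell (-0.57), *Trgc1* (-0.38), *Trbc1* (0.33) and *Trbc2* (-0.10) were not called, and reads of the nearly identical copies in each pair may have been shared out between them. Over the 9 tested CD3, pre-TCR and TCR constant genes, none rose and 4 fell, with a median of -0.57, and these 4 were called whichever library was left out. With lane as a covariate *Cd3d* alone was called lower (-1.44, adjusted p = 0.0365).

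Most genes that define the DN3 stage had lower values in WNK1-deficient thymocytes, but few passed the test. *Ptcra*, which encodes pre-TCRalpha, was at 18678, 17744 and 17024 in control and 3902, 4757, 5164 and 4684 in WNK1-deficient thymocytes. These groups were far apart, but the log2 difference of -1.95 ± 0.96 (SE) had an adjusted p of 0.147 in the fit that shares its spread with the later times, and of 9.12e-06 in the fit to the 7 libraries alone. *Rag2* was at 3091, 4225 and 5012 against 1364, 1234, 918 and 1122 (-1.81, adjusted p = 0.137, alone 1.96e-04), and the *Rag1* values given above lay apart in the same way (-2.22, adjusted p = 0.0668, alone 1.91e-04). In the list of 15 DN3 genes 10 had every WNK1-deficient library below every control library and 1 above, beside 21.6% and 19.4% of all tested genes. Only 2 were called lower and 2 higher, 2 in all without control library 1, against 10 lower and 2 higher in the fit to 0 hr alone, with a median of -0.54. In the lane fit none was called and the median was -0.26. The called ones were *Notch3*, at 37669, 32863 and 35472 against 7348, 11152, 9468 and 8684 (-1.96, adjusted p = 0.0162), its target *Dtx1* (-1.41, -0.26 with lane as a covariate), *Tcf7*, the T cell factor TCF1, which rose by 0.54, and *Il7r*, the interleukin 7 receptor, which rose by 0.84. Without control library 1 the calls of *Notch3* and *Il7r* were lost, that of *Il7r* also without control library 2. *Il2ra* (-0.54), *Dntt* (-0.45), *Notch1* (-0.77), *Hes1* (-0.43) and *Spib* (-0.64) were called only in the fit to the 7 libraries, and *Bcl11b* (-0.24), *Hes5* (-0.17) and *Erg* (-0.15) in neither.

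Some genes of stages past beta-selection rose. Of 18 tested, 6 rose and none fell, with a median of 0.73, and in the lane fit 2 were called higher and none lower. Beside *Cd69*, the chemokine receptor *Ccr9* was at 2676, 1879 and 1665 in control and 6034, 5722, 6024 and 7735 in WNK1-deficient thymocytes, the tetraspanin *Cd53* rose by 1.46, and the adhesion receptor *Cd2* was at 14.1, 32.7 and 32.8 against 335, 196, 125 and 135. In none of these 3 genes did the groups overlap. *Cd8a* was at 1.17, 8.45 and 10.6 against 52.6, 36.9, 36.6 and 18.4 and *Cd8b1* at 0, 5.28 and 20.1 against 48.4, 46.9, 45.05 and 23.9, low in all libraries and not called (adjusted p = 0.111 and 0.0741), the latter except without control library 3. *Cd4* was not called at -0.93. In sorted but mixed DN3 and DN4 cells, fewer cells of a stage and less RNA of a gene per cell cannot be told apart, here and in all results below.

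**Figure D3:**
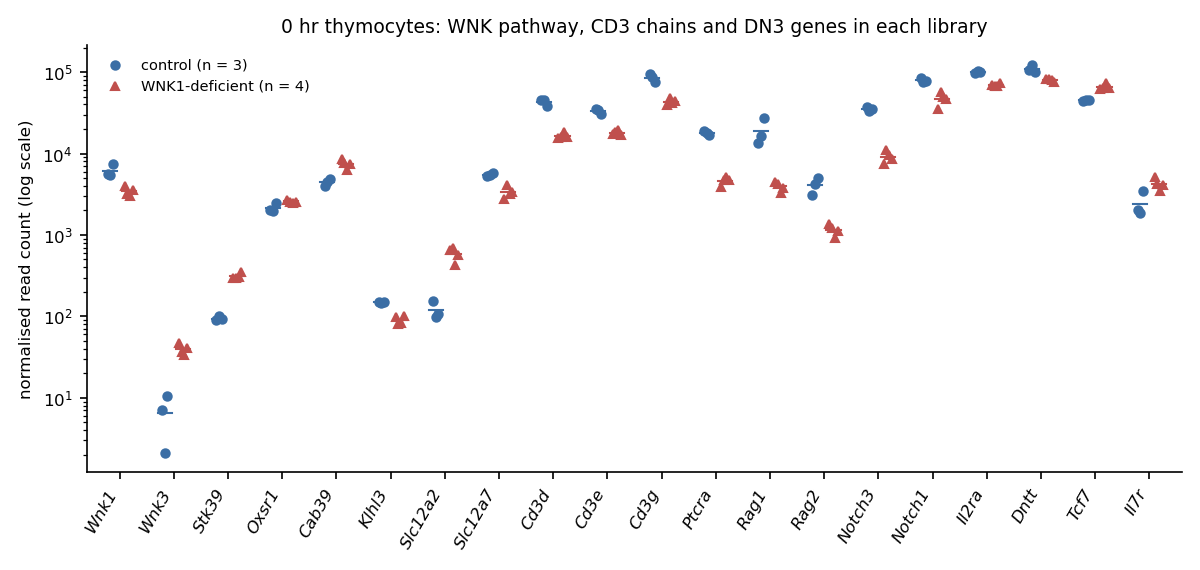
Normalised read count (log scale) of WNK pathway genes, CD3 chains and DN3 genes in each 0 hr library, with blue circles for the 3 control and red triangles for the 4 WNK1-deficient libraries and bars at the group means. *Wnk1*, *Slc12a7*, the CD3 chains, *Ptcra*, *Rag1*, *Rag2* and *Notch3* were lower in every WNK1-deficient library, and *Wnk3*, *Stk39*, *Slc12a2* and *Tcf7* higher.

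Transcription factors of the T lineage changed in both directions. Of 29 tested, 11 rose and 2 fell, and in the lane fit 5 were called higher and 1 lower. *Sox4* was at 10247, 10552 and 11717 against 22449.5, 25041, 20574 and 21808 (1.05, adjusted p = 1.41e-06). *Etv5* rose from 51.5 to 283 on average (2.46). *Ets2* fell from 4251, 5186 and 4457 to 1102, 1274, 1016 and 1048 (-2.06), and *Lef1*, which together with TCF1 drives T cell development, from 10857, 14485 and 14918 to 3896, 4489.5, 3290.2 and 4130.0 (-1.76). *Tcf7* and *Lef1*, close relatives, thus moved in opposite directions, with no overlap between groups in *Lef1*. In the Notch list, 1 of 20 rose (*Tcf7*) and 3 fell, *Heyl* by 1.56 besides *Notch3* and *Dtx1*, while 9 were lower and 3 higher in the fit to 0 hr alone, and in the lane fit none was called. Of the 40 proteins that transmit the TCR signal 6 rose and 5 fell, beside 10.9% and 11.6% of all tested genes, with a median of 0.06. The total was 7 without control library 1 or WNK1-deficient library 1 or 2, and in the lane fit 2 were called higher and none lower. The calcineurin subunit *Ppp3ca* rose by 1.11, and the kinase *Lck* (-0.87), the ubiquitin ligase *Cblb* (-1.39) and the exchange factor *Vav2* (-0.75) fell, each whichever library was left out.

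Most messages of the cytosolic ribosome fell. Of 81 tested ribosomal protein genes none rose and 64 fell, 79 of 81 had a negative log2 fold change, and the median was -0.64. In 71 of them all WNK1-deficient libraries lay below all control libraries, beside 21.6% of all tested genes. Their summed normalised read count was 3183700 to 4044700 in control and 2085700 to 2403800 in WNK1-deficient libraries. *Rpl17* was at 80109.6, 67611 and 73014 against 42767, 41189.8, 40169.9 and 35681 (-0.88, adjusted p = 5.49e-04), and *Rpl23* fell by 0.70 and *Rpl29* by 0.85 on the log2 scale. Without control library 1 only 27 were called lower, with quantile normalisation 24, with lane as a covariate 21 (median -0.96), and with a common total for all libraries the median was -0.61. In mammals these messages start with a run of pyrimidines through which the mTORC1 pathway controls their translation. Of the 60 with a promoter in the RefSeq table, 13 had a C followed by at least 4 further pyrimidines at the listed start (21.7%, against 2.49% of all promoters). All 13 fell, with a median of -0.69, beside -0.64 over the other 47. The 4 of smallest p are shown from 20 bases before to 20 after the start, with the run in capitals.
Rpl38: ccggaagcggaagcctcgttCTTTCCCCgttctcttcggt
Rps27: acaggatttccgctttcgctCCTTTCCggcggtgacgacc
Rpl28: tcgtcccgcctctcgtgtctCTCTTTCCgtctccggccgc
Rps10: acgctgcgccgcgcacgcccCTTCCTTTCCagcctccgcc

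These windows lie at chr11:114668560-114668599 (plus strand, *Rpl38*), chr3:90213629-90213668 (minus, *Rps27*), chr7:4792945-4792984 (plus, *Rpl28*) and chr17:27635225-27635264 (minus, *Rps10*) in GRCm38.p6, and the 4 genes had log2 fold changes of -0.79, -0.95, -0.78 and -0.86. Of 49 initiation and elongation factors none rose and 6 fell, among them the elongation factors *Eef2*, at 260917, 234944 and 228243 against 135770.2, 171184, 171074 and 140327, and *Eef1g* (-0.70), the translation repressor *Eif4ebp2* (-0.49) and the poly(A)-binding protein *Pabpc4* (-0.34). Only 1 of these calls was left without control library 1 and 3 without control library 2 or WNK1-deficient library 1 or 4, and in the lane fit none was called higher and 1 lower. Of 48 ribosome biogenesis factors tested, *Utp18* (0.77) and *Rrp12* (0.55, a call that was lost without any 1 of 6 libraries) rose, none fell, the median was 0.09, and in the lane fit none was called.

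Nuclear genes for mitochondrial proteins were called lower in shares near that of all genes, 11.6%. Of 76 respiratory chain genes none rose and 11 fell (median -0.21), such as *Ndufa8* (-0.62), *Atp5j2* (-0.68), *Ndufb10* (-0.60) and *Uqcrh* (-0.58). Of 76 mitochondrial ribosomal proteins none rose and 10 fell (median -0.21), *Mrps21* (-0.73) among them. The respiratory chain count was 1 without control library 1 and 4 without control library 2 or WNK1-deficient library 1 or 4, and that of the ribosomal proteins 2 without control library 1, 4 without control library 2 or WNK1-deficient library 1 and 6 without WNK1-deficient library 2 or 4. The lane fit called 7 and 3 lower. Of 15 transcripts of the mitochondrial genome 5 rose and none fell: *mt-Nd4* was at 49850.5, 53081 and 80129 against 133128, 176679, 97158 and 121860.0, and *mt-Co3* at 3379, 762 and 12872 against 20751, 25243, 17137 and 13157. No call of this group was left without control library 1 or 2, 1 without WNK1-deficient library 2, 2 without WNK1-deficient library 1 and 3 without WNK1-deficient library 4, there were 8 without control library 3, in the lane fit none was called, and *mt-Co1*, the most abundant, was not called (0.56). The share of all reads from mitochondrial transcripts was 1.73 to 3.34% in control and 3.32 to 3.94% in WNK1-deficient libraries, and its part in these differences was not tested.

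Of 34 tested genes of cholesterol and fatty acid synthesis none rose and 8 fell, with a median of -0.27, and 4 were left without control library 1 or 2. The 8 included *Srebf2*, the transcription factor that drives the pathway, at 13332, 13077 and 13214 against 8259, 9554, 9039 and 7416 (-0.63, adjusted p = 0.00294), and the enzymes *Dhcr7* (-1.06), *Mvk* (-1.18) and *Pmvk* (-0.93). In the lane fit 14 of the 34 were called lower and none higher. In the list of 44 lysosomal genes and TFEB targets 11 rose and 6 fell, 10 in all without control library 1, and in the lane fit 3 were called higher and none lower. *Tfeb*, the master regulator of lysosome genes, was at 24.6, 28.5 and 35.96 in control and 318, 441, 529 and 452 in WNK1-deficient libraries, without overlap (3.82, adjusted p = 1.05e-07). Its relative *Mitf* rose by 1.62, and *Rragd* and *Fnip1*, which act in nutrient sensing by mTORC1 at the lysosome, by 2.42 and 0.88. Of 32 genes of glycolysis and the pentose phosphate pathway 7 rose, the glucose transporters *Slc2a3* and *Slc2a1* (0.89) among them, and 2 fell, such as the aldolase *Aldoc* (-2.11). In the lane fit 3 of the 32 were called higher and 3 lower, with a median of -0.22.

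Of 30 genes of the ATF4 and unfolded protein responses, 6 rose, 2 fell and 5 calls were left without control library 1 or 2, while in the lane fit none was called higher and 3 lower. *Slc38a2*, an amino acid transporter, was at 5310.3, 5789 and 6075 against 13627, 11470.0, 10194 and 12077, and *Slc3a2* (0.58), *Hspa5* (BiP, 0.61) and *Mthfd2* (0.64) rose less. Heat shock chaperones numbered 6 higher and 1 lower of 20, with 4 calls in all without control library 1 or 2 or WNK1-deficient library 1 or 4, in the lane fit none was called higher and 1 lower, and *Dnajb1* rose by 0.80 while its partner in the list *Bag3* fell (-1.29). The 33 proteasome subunits held 1 that rose and 2 that fell, none of which was called without control library 1 or 2 or WNK1-deficient library 1, and 1 without WNK1-deficient library 2 or 4, and in the lane fit none was called.

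No gene of mitosis and cytokinesis passed the test by limma or edgeR and 1 did so by DESeq2, with 3 at an unadjusted p under 0.05 by limma. Of the 34 genes 32 had a positive log2 fold change and the median was 0.46, the fit to the 7 libraries alone called 17 higher and 1 lower, and with lane as a covariate the median was -0.67 and 2 were called lower. Among 28 G1 and S phase regulators 3 rose and 2 fell, and in the lane fit 1 was called higher and 1 lower. *Cdkn1a*, the cell cycle inhibitor p21, fell from 3493, 4351 and 3518 to 1018, 802, 774 and 687 (-2.21, adjusted p = 2.81e-04), without overlap. *Cdkn1c* (p57) rose by 2.03, *Ccnd3* (cyclin D3) by 0.73, and the repressor *E2f4* fell (-0.76). *Myc*, known to be needed for growth after beta-selection, was at 14766, 12678 and 14922 against 10482, 11072, 12927 and 10769 and was not called (-0.32, adjusted p = 0.538). In the BCL2 family 3 of 12 rose and 1 fell: *Bbc3* (PUMA), which promotes death, was at 196, 145 and 118 against 336, 382, 494 and 479.7, *Pmaip1* (NOXA) rose by 1.11, *Bcl2* by 0.76, a call lost without any 1 of 6 libraries, and *Bmf* fell (-1.04). Only the call of *Bbc3* was left without control library 1 or WNK1-deficient library 1, and 2 calls without control library 2 or WNK1-deficient library 4, in the lane fit 1 was called higher and none lower, while *Mcl1* (-0.11), *Bcl2l1* (0.11) and *Bcl2l11* (-0.05) were not called. Of 21 targets of p53, 5 rose and 3 fell, beside 10.9% and 11.6% of all tested genes, with *Btg2* lower (-0.95) and *Plk2* higher (1.70). Without control library 2 or WNK1-deficient library 4 the p53 list had 5 calls in all, and in the lane fit 1 was called higher and 1 lower.

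Of 19 integrins and ligands 4 rose and 3 fell, beside 10.9% and 11.6% of all tested genes, with a median of 0.01. The calls left without control library 1 or 2 were 4, and in the lane fit 2 were called higher and none lower. *Itgae* (CD103) was at 612, 246 and 396 against 1046, 1047, 1905 and 2135, a rise of 1.89 that lost its call without control library 2. *Icam1* rose by 1.20, *Itgav* by 1.00, and *Itga5* fell (-0.85). Of the subunits of LFA-1, the integrin that binds ICAM1, *Itgal* was not called (-0.21, adjusted p = 0.539), and *Itgb2* rose by 1.06 with a call that was lost without any of 6 libraries. Of 18 RAP GTPases and their regulators, which switch integrins on, 7 rose and 1 fell, with a median of 0.39, and in the lane fit 3 were called higher and none lower: *Rap2a* was at 144, 149 and 153 against 607, 467, 476 and 586, and *Rasgrp1* (1.00), *Rasgrp2* (0.97) and *Rap1a* (0.90) rose too. Among 41 actin cytoskeleton genes 2 rose, *Fscn1* and the bundling protein *Lcp1* (1.24), and 5 fell, such as *Actn1* (-0.96) and *Capg* (-1.51), and in the lane fit 2 were called higher and none lower. *Cxcr4*, the receptor for the thymic chemokine CXCL12, was at 10732, 11573 and 9229 against 9896, 10577, 9424 and 10260.5, overlapped and was not called (-0.06, adjusted p = 0.834).

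In the list of 20 genes of MHC class I and peptide loading 4 rose and 1 fell, 3 in all without control library 1, and in the lane fit 4 were called higher and none lower. *H2-Q6* was at 2313, 4476 and 3254 in control and 15102, 13264, 17442 and 17339 in WNK1-deficient libraries. *H2-Q2* rose by 3.08 (1.775 and not called in the lane fit, adjusted p = 0.249) and *H2-Q7* by 0.90 (not called without control library 1), while the immunoproteasome subunit *Psmb8* fell (-0.57). These Qa genes are near-identical copies, so reads may have been shared between them and the single values are uncertain. Of 47 interferon-stimulated genes 4 rose and 2 fell, shares below those of all genes, with 3 calls left without control library 1 or WNK1-deficient library 4, and in the lane fit 2 were called higher and none lower. Beside the chemokines given above, the DNA sensor *Zbp1* fell (-1.58).

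Transcripts that mark other cell types were counted in the sorted cells, and some moved with genotype. Of the 16 markers of NK and innate lymphoid cells 6 were tested and 2 rose (1 without control library 1 or 2), with *Gzma* (granzyme A) at 6980.1, 5259 and 4983 against 19279, 14573, 24921 and 25640.5, and their summed level was 13066 to 15448 in control and 26190 to 37440 in WNK1-deficient libraries, while 10 markers were below the minimum and 2 at 0. *Gzmb* was at 25.8, 7.39 and 1.06 against 195, 59.1, 21.1 and 41.7 and was not called (adjusted p = 0.0989). Among B lineage markers, 6 of 13 tested, *Ighm* rose by 0.87 and *Cd79b* fell (-1.35), and the sums were 8261 to 9367 against 11132 to 14449. Macrophage markers, 10 of 14 tested, summed to 2615 to 3177 in control and 946 to 2728 in WNK1-deficient libraries, with *Lyz2* lower (-1.60, a call lost without control library 1 or 2 or WNK1-deficient library 2 or 4). Granulocyte and mast cell markers, 2 of 14 tested and 3 at 0, summed to 664 to 4255 against 3077 to 9909, and their main member *Cpa3*, a mast cell carboxypeptidase, was highest in WNK1-deficient library 1 and lowest in control library 3. Erythroid markers, 7 of 12 tested, summed to 1609 to 5774 against 301 to 11645, with a median log2 fold change of -0.49. Of these 1 was called lower, a call lost without control library 1, 2 or 3 or WNK1-deficient library 1, 2 or 4. Of 15 fibroblast and endothelial markers, a list that includes *Thy1* and summed to 54912 to 66435 against 46503 to 71225, 5 were tested and *Pdgfrb* rose (1.42), *Cdh5* (-2.27) and *Col1a1* (-1.36) fell, 1 of these calls was left without WNK1-deficient library 4, and 2 markers were at 0. In thymic epithelial markers (11 of 15 tested, sums 7108 to 8311 against 5874 to 6367) and dendritic cell markers (6 of 14 tested, sums 7907 to 9561 against 10726 to 13067) the calls were of *Irf8*, which fell (-1.46), and of *Ccr9*, both dendritic cell markers. The calls in the NK, B lineage, macrophage and erythroid markers were lost in the lane fit. The part of these cells in the differences above was not tested.

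**Figure D4:**
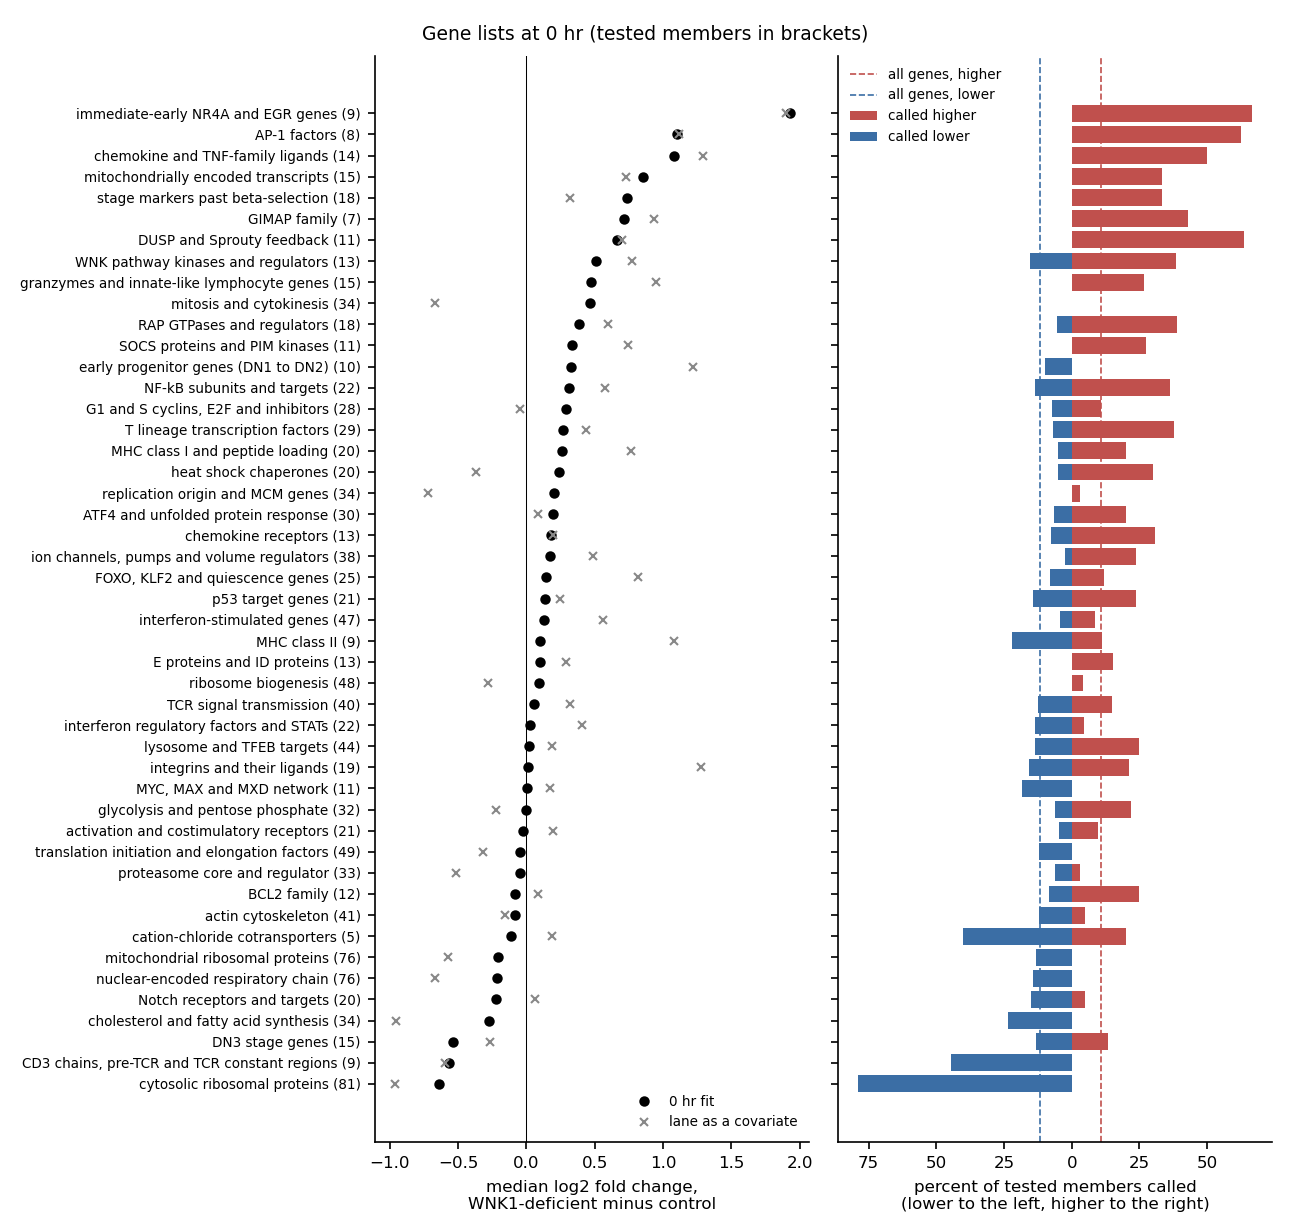
Median log2 fold change of each gene list at 0 hr (left, WNK1-deficient minus control, black circles, and grey crosses with lane as a covariate) and the percentage of its tested members called higher or lower (right), with dashed lines at the 10.9% and 11.6% of all tested genes. The immediate-early, AP-1, chemokine ligand and DUSP lists have the largest shares called higher and the cytosolic ribosomal proteins the largest called lower, with 64 of 81, and the median of the latter is the lowest shown, while lists of replication and mitosis change sign with lane as a covariate.

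Whether the differences at 0 hr were those of the later times was tested in the same fit. Between the genotypes 1265 genes (9.12%) were called at 3 hr, 1701 (12.3%) at 24 hr and 1809 (13%) at 48 hr. The genotype difference at 3 hr differed from that at 0 hr for 10 genes (0.0721%), that at 24 hr for 84 (0.606%) and that at 48 hr for 187 (1.35%), in all 239 genes at some time. That number was 106 to 136 without control library 1 or 2 or WNK1-deficient library 2 or 4, and 25 with lane as a covariate. *Cd69*, higher by 5.60 at 0 hr, differed by 1.25, 1.46 and 1.20 on the log2 scale at 3, 24 and 48 hr, *Nr4a1* by 3.66 at 0 hr and by 0.16, -1.39 and -1.38 later, and *Nfkbia* by 2.60 and by 0.94, 0.55 and 0.21 (adjusted p of each change at most 0.0273). *Relb* differed by 0.78 at 3 hr (-2.12 against its value at 0 hr), and *Inf2* and *Ier5* by -0.13 and -0.13 at 48 hr. *Pxmp4* and *Zfp36l1*, at -0.85 and -0.50 at 0 hr, were at 0.18 and 0.86 at 3 hr, the call of *Zfp36l1* at 0 hr being lost without control library 1 or 3 or WNK1-deficient library 3 or 4 and its value near 0 with lane as a covariate, and *Cblb* and *Cd83*, at -1.39 and 0.90, were at 1.00 and 5.24 at 24 hr. For *Wnk1* the difference was -0.99, -0.95 and -1.05 at the later times, and no change from 0 hr was called (adjusted p at least 0.847).

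At 48 hr the lanes held the genotypes mostly the other way round, with control libraries in lanes 2, 2 and 1 and WNK1-deficient libraries in lanes 1, 1 and 3. Of the 1518 genes called higher at 0 hr, 85.2% had a positive log2 fold change at 48 hr and 81.4% did so in the libraries of lane 1 alone (1 control against 2 WNK1-deficient, with no test). Of the 1605 called lower, 87.4% were negative at 48 hr and 84.7% in lane 1 alone. Over all tested genes 49.2% were positive at 48 hr and 48.6% in lane 1. In the fit of 25 libraries with lane as a covariate, the step between lanes 1 and 2 rests on the control libraries of 48 hr alone. Only 1 of these was in lane 1, so lane cannot be told apart from a difference of that mouse. With this covariate 690 genes (4.98%) were called at 0 hr, 379 higher and 311 lower, of which 531 were also called in the same direction without it. Of the 175 genes named here that were called at 0 hr, 83 were called in the same direction with lane as a covariate, and in 17, of which 2 turned sign, the value was under 50% of that without it. *Wnk1* was then at -0.24 (SE 0.40, adjusted p = 0.75). Within lane 1 at 48 hr it was at 16896 in the control library and at a mean of 7094 in the 2 WNK1-deficient libraries, a log2 difference of -1.31. These are not separate checks, since both depend on the same control library, the only one of lane 1 at 48 hr. *Nr4a1*, *Nfkbia*, *Bcl3* and *Cd69* kept values of 3.95, 2.95, 5.89 and 5.71 with lane as a covariate (adjusted p at most 0.00214), and *Cd3d*, *Notch3* and *Tcf7* stood at -1.44, -1.31 and 0.43 (adjusted p = 0.0365, 0.421 and 0.296). In lane 1 at 48 hr the log2 differences of *Nr4a1*, *Egr1* and *Bcl3* were -1.80, -0.68 and -0.37, each with the sign opposite to that at 0 hr.

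**Figure D5:**
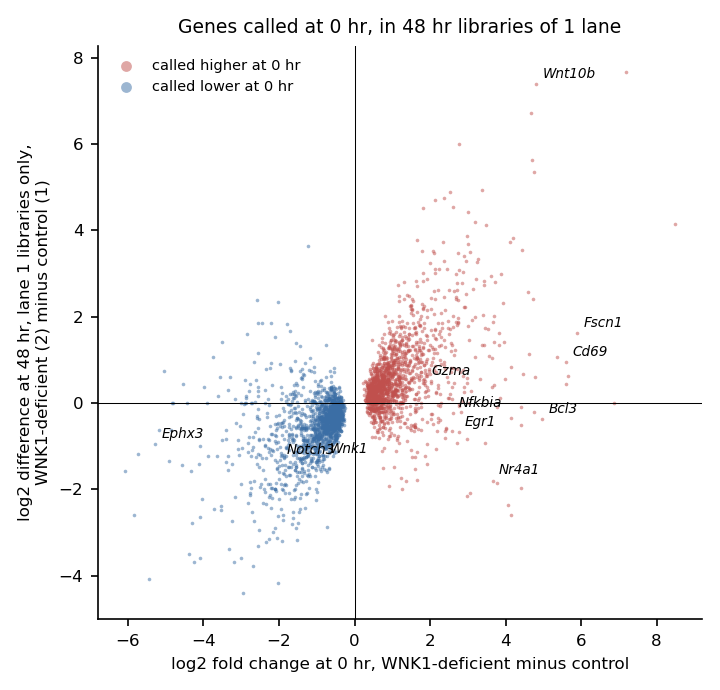
Log2 fold change at 0 hr (WNK1-deficient minus control) of each gene called at 0 hr, against the log2 difference at 48 hr between the 2 WNK1-deficient and the 1 control library of lane 1, with genes called higher at 0 hr in red and lower in blue. Most red points lie above 0 (81.4%) and most blue points below (84.7%), while *Nr4a1*, *Egr1* and *Bcl3* lie below 0.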

How the data were processed

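Bulk RNA-seq of 25 libraries of sorted thymocytes was deposited as 1 table, and the 7 libraries of 0 hr were compared. The deposited values are a signal: gene counts from RSEM 1.2.31 after Trimmomatic 0.36 and STAR 2.5.2a (GRCm38, Ensembl 86), scaled by the authors with 1 size factor for each library in DESeq2 1.18.1 in R 3.4.1. Divided by the smallest step of a library, 100.0% of its values were whole within 0.001, so reads were recovered for depth (24.7 to 56.6 M, megareads, per library at 0 hr, 22.5 to 57.3 M over all) and for count-based alternatives. The main test was limma 3.58.1 (R 4.3.3), applied to log2(value + 1), with 8 group means over all 25 libraries, a trend of variance on level and Benjamini-Hochberg adjustment over 13865 genes with a mean of at least 10 over the 7 libraries, at a threshold of 0.05. Fold changes are on this scale, which understates those of low genes. By the study's methods each library was of a separate mouse, all of 1 experiment, so the spread is that between mice.

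Genes were named as follows: *Wnk1*; the 15 largest rises and falls among called genes whose mean was 100 or more, with groups that did not overlap and a symbol that is no predicted gene, clone name or pseudogene; the 10 rises and falls of smallest p at a mean of at least 1000; up to 4 called genes of smallest p in a gene list, with all members of lists of at most 15 tested genes and those that define a list; and the 5 interactions of smallest p at each later time. Genes outside the rule that are given as context, such as *Gzmb* and *Cxcr4*, were chosen after their values were seen. Some genes that this rule names are not reported here. The members and gene lists were chosen with earlier results of these data known. Symbols were found for 12735 tested genes. Promoters are from RefSeq (GRCm38.p6) at the first listed start, which need not be the most upstream. Alternatives were edgeR 4.0.16 and DESeq2 1.42.0 on recovered reads, other pseudocounts, filters and scalings, the 7 libraries alone, lane or replicate number as a term, and each library left out. The fit was tested on simulated data. Python 3.11.15, pandas 2.3.3 and matplotlib 3.10.9 made the tables and plots.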

Additional observations from a re-analysis of the deposited data

Results flagged for a closer look

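In 16 of the 216 genes named above, 1 of the 4 WNK1-deficient libraries at 0 hr lay far from the other 3, with a gap to the nearest library that, divided by the whole range of the 4, exceeded the critical value of Dixon's test. Chance gives such a gap in about 1 in 20 groups. The shares of the range are given with the normalised read count of the library. For WNK1-deficient library 1 the shares were 0.922 for *Kit* (3425), 0.898 for *Wnt10b* (708), 0.834 for *Rps6kl1* (70.5), 0.857 for *Nr4a2* (36.0), 0.888 for *Junb* (1255), 0.848 for *Dusp7* (768) and 0.916 for *Cpa3* (9882). For WNK1-deficient library 2 the share was 0.872 for *Cd200* (169.7). For WNK1-deficient library 3 the shares were 0.98 for *Fosl2* (40.8), 0.942 for *Cd3d* (18394) and 0.898 for *Ighm* (13059.6). For WNK1-deficient library 4 the shares were 0.863 for *Cd8b1* (23.9), 0.852 for *Stk39* (351), 0.919 for *Fscn1* (550.2), 0.878 for *Tnfsf8* (348) and 0.845 for *Ccr9* (7735).

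For 45 of the genes named above, the genotype difference at 1 of the later times differed from that at 0 hr (limma, adjusted p under 0.05 for the interaction), and the time of smallest p is given. Each value is the log2 fold change at that time minus the one at 0 hr, so that a negative value means a lower difference than at 0 hr. With lane as a covariate such a change was called for 25 genes in place of 239. Among genes that rose at 0 hr, the change at 24 hr was -5.49 for *Cxcl10*, -5.15 for *H2-Q2*, -0.87 for *Clic4*, -5.05 for *Nr4a1*, -3.09 for *Egr1*, -2.39 for *Etv5*, -1.30 for *Ccnd3* and -3.29 for *Gzma*. Among genes that rose at 0 hr, the change at 48 hr was -4.40 for *Cd69*, -2.39 for *Nfkbia*, 2.20 for *Wnt10b*, -4.27 for *Inf2*, -4.43 for *Bcl3*, -2.34 for *Tfeb*, -1.49 for *Dennd6a*, -2.60 for *Relb*, -2.67 for *Nr4a3*, -3.05 for *Nab2*, -2.05 for *Ier5*, -1.34 for *Ier2*, -1.59 for *Junb*, -1.13 for *Dusp7*, -4.16 for *Ccl5*, -0.87 for *Tcf7*, -0.85 for *Slc2a1*, -1.64 for *Rasgrp2* and -1.66 for *Lcp1*. Among genes that fell at 0 hr, the change at 3 hr was 1.78 for *Irf8*, 1.03 for *Pxmp4* and 1.36 for *Zfp36l1*. Among genes that fell at 0 hr, the change at 24 hr was 4.46 for *Pdgfa*, 3.01 for *Fam131a*, 1.58 for *Tm6sf1*, 1.57 for *Nfkb2*, 1.31 for *Cd3d*, 2.40 for *Cblb* and 2.01 for *Capg*. Among genes that fell at 0 hr, the change at 48 hr was 4.21 for *Fam163b*, 5.75 for *Ephx3*, 2.79 for *Ogdhl*, 0.97 for *Gngt2*, 0.82 for *Tcf25*, 1.01 for *Dhcr7* and 2.79 for *Cdkn1a*. *Cd83*, which was not called at 0 hr, changed by 4.34 at 24 hr.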

How the results depend on the processing

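The 3123 calls at 0 hr became 4867 in the fit to the 7 libraries alone, 690 with lane as a covariate and 1270 with at least a 2-fold difference required, and 1712 to 3019 when a library was left out (1712 without control library 1, 1980 without control library 2). edgeR called 1468 genes higher and 1630 lower, and DESeq2 1771 and 1840, sharing 3000 and 3081 genes with the 3123. Of the 203 called genes named by the rule, 89 were called with lane as a covariate and 125 with a 2-fold difference required. The calls summed over the gene lists, 321, became 541 in the 7 libraries alone, 126 with lane, 117 with a 2-fold difference and 178 to 300.0 when a library was left out (178 and 213 without control library 1 and 2). Changes between 0 hr and a later time, 239 genes, became 123 with a replicate block, 25 with lane, 789 by DESeq2, 493 without 3 later libraries that stand apart, and 106 to 189 when a library was left out (111, 106, 136 and 132 without control library 1 and 2 and WNK1-deficient library 2 and 4). Groups did not overlap in 27.12% of genes without a filter, as against 41.02%. With lane as a covariate *Klhl3* was at 0.08405 and *Zfp36l1* at 0.002875, each with the sign turned. Replicate numbers did not pair the samples (correlations of -0.06, -0.07 and -0.10), and with the replicate block 2190 genes were called, 2162 of them among the 3123. The cause of these differences was not tested. Genes near 10 normalised read counts are limited by depth, and 4 mice against 3 limit all tests.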
